A study of Mus musculus with 24 samples.

Results

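Imprinted genes are transcribed mainly from the copy inherited from the mother or mainly from the copy inherited from the father. A list of 35 such mouse genes was looked up by symbol in the RNAseq tables of mouse embryonic stem cells (ESCs) and of the neural progenitors made from them (neural progenitor cells, NPCs), and 29 of the 35 had a line among the 21909 gene symbols of the tables. The other 6, H19, Meg3, Rian, Mirg, Kcnq1ot1 and Airn, are noncoding RNAs and were not analysed here. At many imprinted genes, though not at all, the mark that tells the parental copies apart is DNA methylation laid down in the germ line at control regions. It is kept through cell division by factors such as ZFP57 and TRIM28. Many imprinted genes act on fetal growth, with paternally expressed genes such as Igf2 promoting it and maternally expressed genes such as Cdkn1c, Igf2r and Grb10 holding it back, and most of them lie in clusters that share a control region.

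The study compared ESCs with NPCs and mapped nucleolus-associated domains (NADs), the stretches of the genome that touch the nucleolus, in both. The ESCs were of the E14 line, untreated, and grown without feeder cells in N2/B27 medium with leukemia inhibitory factor at 1000 U/ml and the 2i inhibitors CHIR99021 at 3 µM and PD0325901 at 1 µM. The NPCs were derived in vitro from E14 cells as embryoid bodies in suspension over 8 days in medium with fetal calf serum, with retinoic acid at 2 µM in the last 4 days. RNA came from 3 replicate samples of each cell type. Both cell types trace back to a single cell line, and the NPC samples hold whole embryoid body cultures. Culture medium and any difference in sequencing run cannot be told apart from cell type. The 2 NAD lists came from cells that carried H2B-Dam or H2B-Dam-NoLS, a histone fused to the Dam methylase without or with a nucleolar localization signal, induced for 15 h with doxycycline at 100 ng/ml and Shield1 at 1 µM, and driven by a minimal hsp promoter from a single copy at Rosa26. Reads were not assigned to a parental copy, so each value is the sum of both copies and says nothing on whether a gene was imprinted in these cells.

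Values are RPKM, reads scaled by the length of the gene and by the total of reads in the sample. Low values multiplied by the full genomic span of the gene gave whole numbers of reads, within 0.05, for 58.2% to 60.2% of the genes with 1 to 20 reads in each sample, against at most 13.1% when exon lengths were used. The kilobases are thus those of the whole gene, introns included, and a long gene has a low RPKM for the same number of reads. The study's methods state that exon coverage was calculated, whereas the length found here is the whole span. From the same steps, values had been divided by 34040000, 33720000 and 30770000 reads for ESC replicates 1, 2 and 3 and by 30140000, 27260000 and 32290000 reads for NPC replicates 1, 2 and 3. Values of each group are given in this order of replicates throughout. Each sample was normalized on its own, and the tables of ESCs and NPCs were not normalized together.

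ESC replicate 3 stood apart. Over the genes with a mean of at least 1 RPKM, its log2(RPKM + 1) values correlated across genes at 0.960 and 0.963 (Pearson) with those of ESC replicates 1 and 2, which correlated at 0.9984 with each other, and the NPC samples correlated at 0.9960 to 0.9985 among themselves. Its RPKM values summed to 141243, against 105011 and 106892 in the other ESC samples. The difference followed gene span: the median log2 difference of ESC replicate 3 from the other ESC samples was 0.39 in the fifth of the genes with the shortest spans and -0.36 in the fifth with the longest, while the same medians for NPC replicate 3 were 0.0096 and -0.0013. The source of this difference was not tested, and where a call of an imprinted gene changed without this sample, the change is given.

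Marker genes fixed for each cell type were checked against the labels. With limma on log2(RPKM + 1), for genes with a mean of at least 1 RPKM over the 6 samples and at an adjusted p under 0.05, all 7 ESC markers were called lower in NPCs, with Pou5f1 at 130, 136 and 202 RPKM in ESCs and at 0.0558, 0.0386 and 0.0651 RPKM in NPCs. Among 7 NPC markers, 4 passed the filter and 3 were called higher in NPCs, namely Sox3, Nes and Hes5. Pax6, which marks radial glia, was at most at 0.0167 RPKM in any ESC sample and at 1.55, 1.42 and 1.67 RPKM in NPCs, under this filter on the mean. Pax6, Sox1 and Fabp7, the markers under the filter, were called higher in a wider limma fit over every gene above 0 in any sample. Vim was not called in either fit. When ESC replicate 3 was left out, 5 NPC markers were called higher, the additional ones being Vim, with a log2 difference of 0.32 against 0.21 with this sample, and Sox1, which then passed the filter. Of the ESC markers, 5 passed only through their ESC level, and Sox3 and Hes5 passed only through their NPC level, so these had to differ. The wider fit, which has no such filter, called all 7 ESC markers lower and 6 of the 7 NPC markers higher. The 7 NPC markers summed to 87.0, 93.0 and 96.7 RPKM in NPCs and to 40.0, 41.4 and 49.8 RPKM in ESCs, of which Vim alone gave 44.0, 44.0 and 48.8 RPKM in NPCs and 35.3, 37.4 and 45.9 RPKM in ESCs.

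The NPC samples also held markers of other lineages, for which the calls of the wider fit are given. Of the 6 mesoderm markers, Foxf1, Twist1 and Meox1 were called higher in NPCs and T was called lower. They summed to 52.1, 55.7 and 51.1 RPKM in NPCs, mostly from Foxf1 and Twist1, against 1.20, 1.28 and 1.10 RPKM in ESCs. T, which codes for brachyury, a factor of early mesoderm, made up most of the ESC sum, at 0.964, 1.04 and 0.869 RPKM, and was at 0.0164, 0.00909 and 0.0115 RPKM in NPCs. Hand1 and Mesp1 were at most at 0.0840 RPKM in any sample and were not called. All 6 mesenchyme markers were called higher, and they summed to 32.3, 39.7 and 41.5 RPKM in NPCs against at most 0.0741 RPKM in any ESC sample, led by the collagen gene Col1a1, with Dcn at or below 0.0284 RPKM. All 6 endoderm markers were called higher as well, and they summed to 14.7, 16.2 and 15.7 RPKM in NPCs against 0.0977, 0.115 and 0.0834 RPKM in ESCs, led by Gata6, with Afp at or below 0.0329 RPKM.

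Of the 6 endothelium and blood markers, Kdr, Cdh5, Tal1 and Hba-a1 were called higher in NPCs, Pecam1 was called lower and Gata1 was not called. They summed to 6.67, 6.79 and 7.16 RPKM in NPCs, led by Kdr, and to 1.35, 1.31 and 1.02 RPKM in ESCs. Most of the ESC sum was Pecam1, an adhesion protein of endothelium, at 1.21, 1.17 and 0.929 RPKM in ESCs and at 0.496, 0.407 and 0.396 RPKM in NPCs. The 5 neuron markers went in both directions while their sum was lower in NPCs, at 11.1, 12.2 and 14.5 RPKM in ESCs and at 6.86, 5.54 and 6.62 RPKM in NPCs. Tubb3 and Stmn2, which gave most of the ESC sum, were called lower: Tubb3 was at 6.42, 7.57 and 7.86 RPKM in ESCs and at 4.47, 3.56 and 4.41 RPKM in NPCs, and Stmn2 at 4.67, 4.62 and 6.55 RPKM in ESCs and at most at 0.327 RPKM in NPCs. Dcx, Elavl3 and Map2 were called higher, with Dcx, a microtubule protein of young neurons, listed at 0 in all ESC samples and at 1.05, 0.821 and 0.874 RPKM in NPCs. Elavl3 was at 0.866, 0.735 and 0.877 RPKM in NPCs and Map2 at most at 0.152 RPKM. The 6 trophoblast markers, too, went in both directions, with sums of 7.55, 7.87 and 5.47 RPKM in ESCs and of 2.54, 2.72 and 2.63 RPKM in NPCs. Tfap2c, Eomes and Cdx2 were called lower, with Tfap2c at 6.00, 6.07 and 3.77 RPKM in ESCs and at most at 0.0926 RPKM in NPCs. Krt7, Gata3 and Elf5 were called higher, and Krt7, a keratin gene, gave most of the NPC sum, at 1.74, 1.79 and 1.70 RPKM. In such bulk samples, more cells of a kind and more RNA per cell cannot be told apart, and the part of these other lineages in the levels of the imprinted genes was not tested.

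The question of the comparison was how far RNA levels of imprinted genes differed between the cell types. Of the 29 genes, 24 had every NPC sample above every ESC sample, as had 45.5% of the 18360 genes above 0 in any sample, and 2, Phlda2 and Ascl2, had every NPC sample below every ESC sample, as had 27.4% of those genes. The groups overlapped for Snrpn, Zrsr1 and Impact.

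A mean of at least 1 RPKM over the 6 samples was needed for the test, and 20 of the 29 imprinted genes passed. Of these, 9 had an ESC mean under 1 RPKM and so passed only through their NPC level. They were Igf2, Cdkn1c, Dlk1, Zim1, Grb10, Peg12, Mest, Slc38a4 and Ube3a. Phlda2 passed only through its ESC level. These 10 had to differ, so the limma p-values given for them below do not count as support for a difference. With limma on log2(RPKM + 1), 16 of the 20 were called higher in NPCs at an adjusted p under 0.05, against 33.2% of all 7233 genes tested, and 1 was called lower, against 34.6%. With a change of at least 2-fold on that scale as well, 15 were called higher, against 15.1%, and 1 lower, against 12.4%. Impact, Zrsr1 and Zdbf2 were not called.

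In the fit over every gene above 0 in any sample, in which all 29 took part, 23 were called higher, against 39.5% of 18360 genes, and 2 lower, against 22.9%. Without ESC replicate 3, 18 were called higher, against 42.2% of 7359 genes, and 1 lower, against 44.9%. The additional genes were Zdbf2 and Rtl1, the latter of which passed the filter only because its 2 identical lines had been summed. Differences on the log2(RPKM + 1) scale understate the change of genes with low values.

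**Figure D1:**
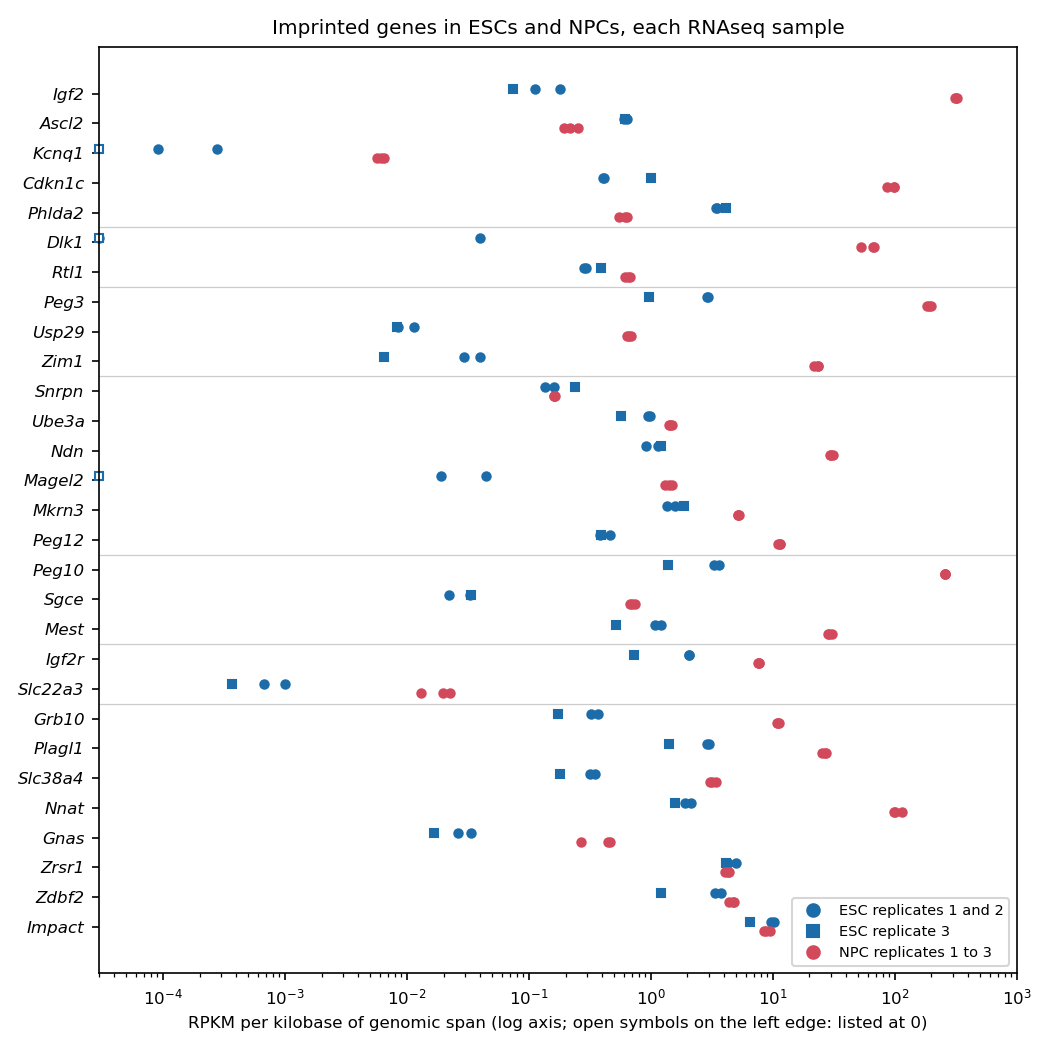
RPKM of 29 imprinted genes in each RNAseq sample on a log axis, ESC samples in blue (replicate 3 as squares) and NPC samples in red, grouped by imprinted cluster; open symbols on the left edge stand for values listed at 0. Igf2 lies at 311 to 326 RPKM in NPCs and at most at 0.181 RPKM in ESCs, whereas Phlda2 and Ascl2 are higher in ESCs and Snrpn, Zrsr1 and Impact overlap.

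The distal part of chromosome 7 holds the Igf2 and Kcnq1 domains, which are regulated from separate control regions. Igf2, the paternally expressed fetal growth factor at chr7:142650766-142666816 (GRCm38, minus strand), was at 0.112, 0.181 and 0.0749 RPKM in ESCs and at 326, 318 and 311 RPKM in NPCs. On the log2(RPKM + 1) scale this was the largest difference among the 20 imprinted genes tested, 8.15 ± 0.09 (log2, SE; limma, adjusted p = 1.4e-07), with all 3 NPC samples above all 3 ESC samples. By mean RPKM, Igf2 ranked number 26 of 21909 symbols in NPCs and number 10492 in ESCs. Expressed per exon length instead, it also ranked number 26, of 20244 symbols, in NPCs.

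Cdkn1c codes for p57, an inhibitor of cyclin-dependent kinases, and is expressed from the maternal copy. It was at 0.412, 0.405 and 1.01 RPKM in ESCs and at 99.1, 98.7 and 87.2 RPKM in NPCs. The ESC values correspond to 38, 37 and 84 reads, so ESC replicate 3 was the high one, and the groups were far apart (log2 difference 5.92 ± 0.16; limma, adjusted p = 4.2e-07). Without ESC replicate 3 the difference was 6.09.

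Phlda2 and Ascl2, also maternally expressed genes of this domain, went the opposite way. Phlda2, a small protein that restrains growth of the placenta, was at 3.48, 3.45 and 4.13 RPKM in ESCs and at 0.641, 0.548 and 0.617 RPKM in NPCs, with no overlap. It fell by 1.55 (SE 0.08; limma, adjusted p = 5.8e-06). Ascl2, a transcription factor of the trophoblast, was at 0.639, 0.609 and 0.614 RPKM in ESCs and at 0.218, 0.196 and 0.254 RPKM in NPCs, that is 53, 50 and 46 reads against 16, 13 and 20. It was under the filter and therefore not tested with the others, and in the fit over all genes above 0 it fell by 0.41 (limma, adjusted p = 8.1e-05). Kcnq1, a potassium channel gene with a span of 321 kb, had 1, 3 and 0 reads in ESCs and 63, 50 and 63 reads in NPCs, at most 0.00652 RPKM in any sample, and was called higher in NPCs in the fit over all genes above 0 (limma, adjusted p = 0.0029). Its antisense RNA Kcnq1ot1 lies within it over 93092 bases, and reads of the pair cannot be told apart unless counting used the strand, which the sources used here do not state.

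Of the Dlk1 cluster of chromosome 12, the list held the protein-coding genes Dlk1 and Rtl1, both paternally expressed. Dio3, a gene of the same cluster outside the list, was called lower in NPCs (-0.58, limma, adjusted p = 0.0049). Dlk1, a membrane protein related to Notch ligands, was listed at 0 in ESC replicates 1 and 3 and at 0.0395 RPKM in replicate 2. In NPCs it was at 52.8, 66.0 and 67.5 RPKM, all far above ESCs (log2 difference 5.95 ± 0.11; limma, adjusted p = 1.9e-07). Rtl1, a gene derived from a retrotransposon and needed in the placenta, had 2 identical lines. Each gave 0.285, 0.295 and 0.388 RPKM in ESCs and 0.682, 0.646 and 0.617 RPKM in NPCs, that is 108, 111 and 133 reads against 229, 196 and 222, with no overlap between the groups.

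The Peg3 cluster at the proximal end of chromosome 7 holds Peg3 and Usp29, which are paternally expressed and start 146 bases apart on opposite strands, and the maternally expressed Zim1. Peg3, a zinc finger protein, was at 2.95, 2.87 and 0.972 RPKM in ESCs, with replicate 3 the low one, and at 197, 192 and 186 RPKM in NPCs. Its log2 difference was 5.95 ± 0.28 (limma, adjusted p = 4.2e-06) and 5.62 ± 0.05 without ESC replicate 3. Zim1, another zinc finger gene, was at 0.0292, 0.0400 and 0.00645 RPKM in ESCs, from 25, 34 and 5 reads, and at 21.8, 23.5 and 23.6 RPKM in NPCs. The groups of Zim1 did not overlap, and its difference was 4.55 ± 0.07 (limma, adjusted p = 1.6e-07). Usp29, which belongs to a family of deubiquitinases, spans 237 kb and was at most at 0.689 RPKM in any sample. It was nonetheless at 0.633, 0.689 and 0.661 RPKM in NPCs against at most 0.0115 RPKM in ESCs.

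In the Prader-Willi and Angelman region of chromosome 7, the intronless genes Ndn, Peg12 and Mkrn3 were called higher in NPCs. Ndn, which codes for necdin, a protein of postmitotic neurons, was at 0.907, 1.15 and 1.22 RPKM in ESCs and at 31.2, 30.0 and 29.6 RPKM in NPCs. Peg12 was at 0.467, 0.382 and 0.394 RPKM in ESCs and at 11.4, 11.4 and 11.0 RPKM in NPCs. Mkrn3, a zinc finger protein known for its role in the onset of puberty, was at 1.35, 1.58 and 1.89 RPKM in ESCs and at 5.26, 5.17 and 5.24 RPKM in NPCs. None of these genes overlapped between the groups, and the differences were 3.90, 3.12 and 1.26 on the log2 scale for Ndn, Peg12 and Mkrn3 (limma, adjusted p at most 3.9e-05). Magel2, which belongs to the same MAGE family as Ndn, had 3, 7 and 0 reads in ESCs and 198, 188 and 194 reads in NPCs, and with 1.42, 1.49 and 1.30 RPKM in NPCs its mean over all samples was 0.711 RPKM, under the filter.

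Ube3a and Snrpn are long genes of the same region, and whether their change differed from that of the intronless genes was not tested. Ube3a, the ubiquitin ligase lost in Angelman syndrome, was at 0.984, 0.946 and 0.570 RPKM in ESCs and at 1.49, 1.43 and 1.42 RPKM in NPCs. All NPC samples were above all ESC samples, the difference was 0.42 ± 0.10 (limma, adjusted p = 0.0082), and it was no longer called after quantile normalization (0.12; adjusted p = 0.05). Without ESC replicate 3 it was 0.32. Snrpn, a splicing protein gene, was between 0.135 and 0.238 RPKM in ESCs and between 0.160 and 0.164 RPKM in NPCs, so the NPC values lay within the range of the ESC values. Expressed per exon length, with the span of RefSeq, its means were 20.3 RPKM in ESCs and 18.5 RPKM in NPCs. It was not called in the fit over all genes above 0 (-0.02; limma, adjusted p = 0.64). Its line shares sequence with Snurf on the same strand, and how reads shared by such genes were counted is not given in the sources used here.

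Chromosome 6 holds Peg10 and Sgce, whose starts lie 98 bases apart on opposite strands, and Mest. Peg10, a retrotransposon-derived gene needed for the placenta, was at 3.63, 3.30 and 1.39 RPKM in ESCs and at 261, 261 and 260 RPKM in NPCs. It ranked number 45 of 21909 symbols by mean RPKM in NPCs and number 75 of 20244 per exon length. The difference was 6.17 ± 0.26 (limma, adjusted p = 2.4e-06), and 5.87 without ESC replicate 3. Sgce, which codes for epsilon-sarcoglycan, shares this start region but spans 72.9 kb, and was at 0.0326, 0.0220 and 0.0334 RPKM in ESCs and at 0.682, 0.701 and 0.739 RPKM in NPCs. Expressed per exon length, the means of Sgce were 1.14 RPKM in ESCs and 27.5 RPKM in NPCs. Mest, a gene of the mesoderm with a hydrolase fold, was at 1.08, 1.20 and 0.515 RPKM in ESCs and at 30.4, 28.5 and 29.1 RPKM in NPCs. All NPC samples of Mest were above all ESC samples (3.99 ± 0.15; limma, adjusted p = 1.7e-06).

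On chromosome 17, Igf2r, the receptor that takes up IGF2 for breakdown, is expressed from the maternal copy. It was at 2.07, 2.04 and 0.732 RPKM in ESCs and at 7.58, 7.73 and 7.74 RPKM in NPCs. The groups did not overlap, and the difference was 1.78 ± 0.23 (limma, adjusted p = 0.00058), or 1.51 ± 0.04 without ESC replicate 3, the low sample. Slc22a3, an organic cation transporter of the same cluster, had 3, 2 and 1 reads in ESCs and 52, 54 and 37 reads in NPCs, at most 0.0226 RPKM. Airn overlaps Igf2r on the opposite strand over 28354 bases.

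Several imprinted genes lie apart from the large clusters. Grb10, an adaptor that dampens insulin and IGF signalling, was at 0.368, 0.321 and 0.175 RPKM in ESCs and at 11.0, 10.9 and 11.3 RPKM in NPCs. Plagl1, a zinc finger transcription factor known for arresting the cell cycle, was at 3.02, 2.90 and 1.42 RPKM in ESCs and at 27.0, 27.3 and 25.5 RPKM in NPCs. The differences were 3.23 ± 0.08 for Grb10 and 3.04 ± 0.20 for Plagl1, without overlap between groups (limma, adjusted p = 3.2e-07 and 2.5e-05). Slc38a4, an amino acid transporter, was at 0.352, 0.318 and 0.180 RPKM in ESCs and at 3.06, 3.21 and 3.40 RPKM in NPCs (1.72 ± 0.07; limma, adjusted p = 2.5e-06).

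On chromosome 2, Nnat, which codes for neuronatin, a small membrane protein of the developing brain, was at 1.91, 2.15 and 1.57 RPKM in ESCs and at 115, 101 and 98.4 RPKM in NPCs. The difference was 5.20 ± 0.12 (limma, adjusted p = 2.5e-07). Nnat lies wholly inside Blcap on the opposite strand, and Blcap was at 2.51, 2.45 and 2.60 RPKM in ESCs and at 3.90, 3.65 and 3.77 RPKM in NPCs. Gnas, which codes for the stimulatory G protein alpha subunit, a protein made in most cell types, was at 0.0339, 0.0261 and 0.0167 RPKM in ESCs and at 0.268, 0.462 and 0.449 RPKM in NPCs. The groups did not overlap, but the values are low for a gene in such wide use. Gnas overlaps Nespas and Gm20721 on the opposite strand, and the effect of overlapping genes on its count was not tested.

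Only 3 of the genes that passed the filter were not called, and all are expressed from the paternal copy. Zrsr1, a splicing factor gene inside an intron of Commd1, was at 5.02, 4.32 and 4.18 RPKM in ESCs and at 4.31, 4.37 and 4.10 RPKM in NPCs. Impact, a regulator of the kinase GCN2, was at 10.2, 9.61 and 6.50 RPKM in ESCs and at 9.46, 8.81 and 8.41 RPKM in NPCs. Both overlapped between the groups, with differences of -0.06 ± 0.09 for Zrsr1 and 0.04 ± 0.17 for Impact (limma, adjusted p = 0.53 and 0.85). The difference of Impact turned to -0.14 without ESC replicate 3 and to -0.05 after median centring. With RPKM per exon length and without ESC replicate 3, Impact was called lower (-0.15, limma, adjusted p = 0.032). Zdbf2, a gene with a known role in postnatal growth, was at 3.74, 3.37 and 1.21 RPKM in ESCs and at 4.39, 4.68 and 4.80 RPKM in NPCs. Its groups did not overlap, and its difference of 0.65 ± 0.29 (limma, adjusted p = 0.083) did not pass the threshold. Without ESC replicate 3, the low sample, it was 0.31 ± 0.05 (limma, adjusted p = 0.0011), and without ESC replicate 1 it was 0.86 (limma, adjusted p = 0.042), so that leaving out either sample made the call.

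**Figure D2:**
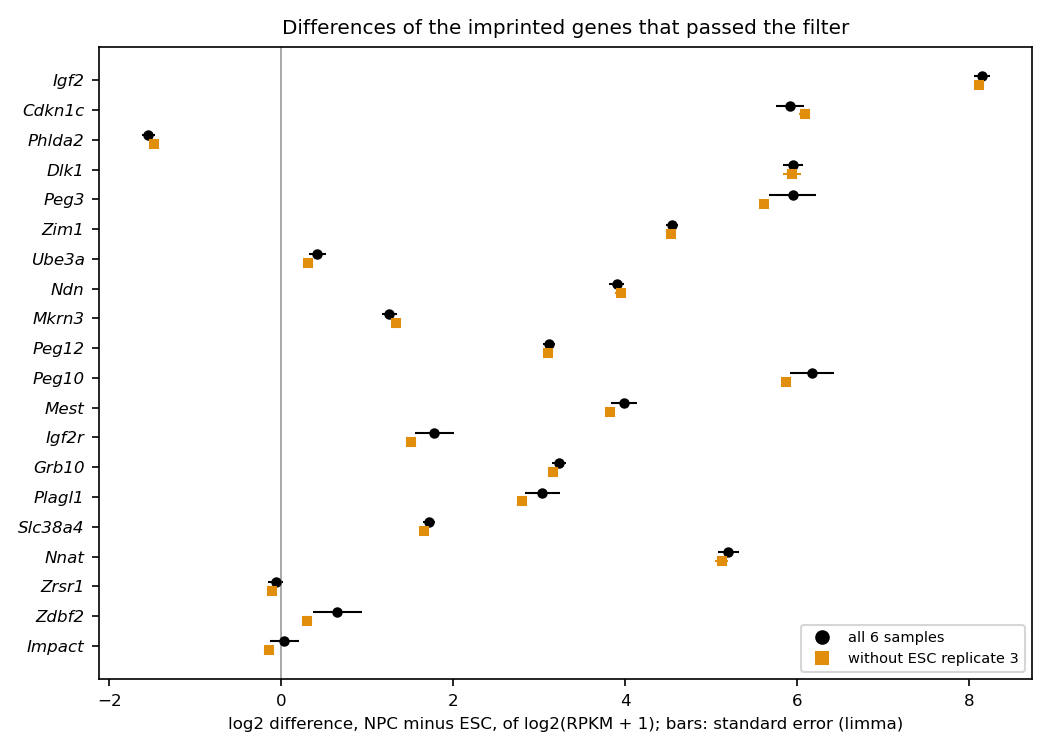
Log2 difference between NPCs and ESCs, on the log2(RPKM + 1) scale, for the 20 imprinted genes that passed the filter, with bars for the standard error, over all 6 samples (circles) and without ESC replicate 3 (squares). Igf2 has the largest difference at 8.15, Phlda2 alone lies well below 0 at -1.55, and Impact changes sign without ESC replicate 3.

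The maternally and the paternally expressed genes were compared by counts. The grouping was fixed by gene, and the copy expressed in these cells was not measured. Of 10 maternally expressed genes with a line, 6 passed the filter, and 5 were called higher, against 33.2% of all genes tested, and 1 lower, against 34.6%, with a median log2 difference of 2.51. Of 19 paternally expressed genes with a line, 14 passed, and 11 were called higher, against the same 33.2%, and 3 were not called, with a median of 3.51. The median over all 7233 genes tested was -0.04. Summed RPKM of the paternally expressed genes was 35.5, 34.2 and 22.6 in ESCs and 1082, 1065 and 1048 in NPCs, and that of the maternally expressed genes was 8.02, 7.84 and 7.25 in ESCs and 142, 143 and 133 in NPCs. Most of the paternal sum in NPCs came from Igf2, Peg10 and Peg3, at means of 318, 261 and 191 RPKM. Most of the maternal sum came from Cdkn1c, at a mean of 95.0 RPKM. Among those that passed, 4 maternally and 5 paternally expressed genes did so only through their NPC level, so the counts and medians rest in part on genes that had to differ. The number of paternally expressed genes called higher was 13 without ESC replicate 3, against 42.2% of all genes tested. The difference between the lists was not tested.

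Of 44 imprinted genes outside the list, 39 had a line and 10 passed the filter. Of these, 4 were called higher, against 33.2% of all genes tested, and 5 lower, against 34.6%, with a median log2 difference of -0.32. Asb4 and H13 passed only through their NPC level and Jade1 only through its ESC level. The balance moved with the filter: in the fit over every gene above 0, 37 took part, of which 19 were called higher, against 39.5% of all genes, and 8 lower, against 22.9%, and with RPKM per exon length 12 were called higher, against 42.0%, and 8 lower, against 29.9%. Among the 10 genes that passed the filter, the largest rise was that of Asb4, a gene of the Peg10 cluster (2.51, limma, adjusted p = 1.9e-07). It went from at most 0.00414 RPKM in ESCs to 4.61, 4.68 and 4.79 RPKM in NPCs. Blcap (0.44) and the signal peptide peptidase gene H13 (0.44) followed. The largest fall among these 10 genes was that of Jade1 (-2.48, limma, adjusted p = 3.7e-05). It went from 9.50, 9.28 and 5.68 RPKM in ESCs to 0.622, 0.581 and 0.606 RPKM in NPCs. Dio3 (-0.58), a gene of the Dlk1 cluster whose product inactivates thyroid hormone, and Mcts2 (-0.47) followed. The order was another without ESC replicate 3, with Gab1 at -0.57, Dio3 at -0.45 and Mcts2 at -0.29 after Jade1 at -2.70. Mcts2 was no longer called after quantile normalization, with every gene above 0 tested, without ESC replicate 1 or without any single NPC replicate, and H13 not after quantile normalization. Without any single NPC replicate, H13 was under the filter and not tested, and the number called higher was 3, against 26.7%, 26.2% and 26.5% of all genes without NPC replicates 1, 2 and 3. The number called lower in these fits was 3, 2 and 2, against 28.0%, 28.2% and 27.8%. With the replicate number as a block, 3 were called lower, against 32.4% of all genes.

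Factors that keep or erase imprints moved in both directions. All 21 had a line and 16 passed the filter, with 5 called higher, against 33.2% of all genes tested, 7 lower, against 34.6%, and a median log2 difference of -0.32. Of the 16, 3 passed only through their NPC level (Dnmt3a, Tet3 and Smchd1) and 2 only through their ESC level (Dppa3 and Dnmt3b). These had to differ, whatever their p-values. In the fit over every gene above 0 the calls were 6 higher, against 39.5% of all genes, and 8 lower, against 22.9%. Without ESC replicate 3, 11 were called lower, against 44.9% of all genes. The additional ones were Setdb1, Dnmt1, Ctcf and Tet2, and the difference of Tet2 turned from 0.23 to -0.16. Without any single NPC replicate, Tet3 and Smchd1 were under the filter and not tested, and the number called higher was 3, against 26.7%, 26.2% and 26.5% of all genes without NPC replicates 1, 2 and 3. Zfp57, the zinc finger protein that binds the methylated copy of control regions, was at 45.2, 42.6 and 33.8 RPKM in ESCs and at 12.0, 13.2 and 13.1 RPKM in NPCs (-1.58; limma, adjusted p = 8.3e-05). Dppa3, which shields maternal methylation in the zygote, was at 10.8, 10.9 and 22.3 RPKM in ESCs and listed at 0 in all NPC samples. Dnmt3b, a de novo DNA methyltransferase, was at 4.03, 4.35 and 2.78 RPKM in ESCs and at 0.537, 0.557 and 0.578 RPKM in NPCs. The other de novo methyltransferase, Dnmt3a, went from 0.172, 0.187 and 0.117 RPKM in ESCs to 5.45, 5.32 and 5.02 RPKM in NPCs (2.43; limma, adjusted p = 2.9e-07). The methylcytosine oxidase gene Tet3 rose by 1.59 and Zfp445, a zinc finger partner of Zfp57 in imprint maintenance, by 1.25. Zfp445 was at 8.30, 7.61 and 3.02 RPKM in ESCs and at 15.6, 15.5 and 14.8 RPKM in NPCs. Without ESC replicate 3, its difference was 0.87.

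Of 18 genes of the insulin-like growth factor axis outside the list, all had a line and 8 passed the filter. Of these, 6 were called higher, against 33.2% of all genes tested, and Igfbp2 and Igf2bp1 were not called. Irs2, Igfbp4, Igfbp5 and Igfbp6 passed only through their NPC level and so had to differ, and the median log2 difference of 1.96 over the 8 rests on them. In the fit over every gene above 0, 14 of the 18 were called higher, against 39.5% of all genes, and Igfals, a carrier of IGFs in blood, was called lower, from 1.08, 0.888 and 0.913 RPKM in ESCs to 0.0922, 0.0680 and 0.0287 RPKM in NPCs. Per exon length, 12 were called higher, against 42.0%. Without ESC replicate 3, 1 gene, Igf2bp1, was called lower, against 44.9%. The largest rises among the 8 were those of Igfbp5, Igfbp4 and Igfbp3. Igfbp5 was at 0.211, 0.278 and 0.109 RPKM in ESCs and at 144, 142 and 133 RPKM in NPCs (6.87, limma, adjusted p = 1.4e-07). Igfbp4 rose by 5.47 and Igfbp3 by 2.79. Of the other binding protein genes that passed, Igfbp6 rose by 1.83, less than Irs2 at 2.09, and Igfbp2 was at -0.38 and not called.

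Positions against the nucleolus were read from the NAD lists, which hold 1769 NADs of ESCs and 1447 NADs of NPCs, each with a single score for both replicates. Of the 29 imprinted genes, 4 overlapped a NAD of ESCs by at least 1 base, against 26.9% of the 21597 genes of the RNAseq tables with a position, and 13 overlapped a NAD of NPCs, against 21.4%. The 13 genes shared 7 NADs, so they are not 13 separate observations, and the lists hold no replicate values for a test. In ESCs the genes were Snrpn, Ube3a, Slc38a4 and Impact.

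In NPCs, neighbours lay together in long NADs. The NAD at chr7:61200075-63099857, with a score of 0.0502, held Ndn, Magel2, Mkrn3 and Peg12 over their full length, whereas in ESCs the nearest NAD lay 46.95 kb from Ndn and 162 kb from Peg12. The NAD at chr7:6400584-7199856, with a score of 0.0259, held Zim1, Peg3 and Usp29, and that at chr6:3499595-4800093, with a score of 0.0450, held Peg10 and Sgce. The median score of the NAD list of NPCs was 0.0413. Ube3a and Snrpn lay in NADs of both cell types. Kcnq1 overlapped the NAD of NPCs at chr7:143201345-143299813 with 30.7% of its length, and Plagl1 overlapped one with 44.4%. Slc38a4 and Impact lay in NADs of ESCs only. In RNA, 12 of the 13 genes in NADs of NPCs, all but Snrpn, had every NPC sample above every ESC sample. The same held for 12 of the 16 imprinted genes outside them and for 45.5% of all genes above 0. For NADs of ESCs it held for 2 of the 4 genes inside and for 22 of the 25 outside. The difference between these groups of genes was not tested. Among the 13 were Peg10, at 260 to 261 RPKM in NPCs, and Peg3, at 186 to 197 RPKM. Igf2 lay 34.7 kb from the nearest NAD in both cell types.

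**Figure D3:**
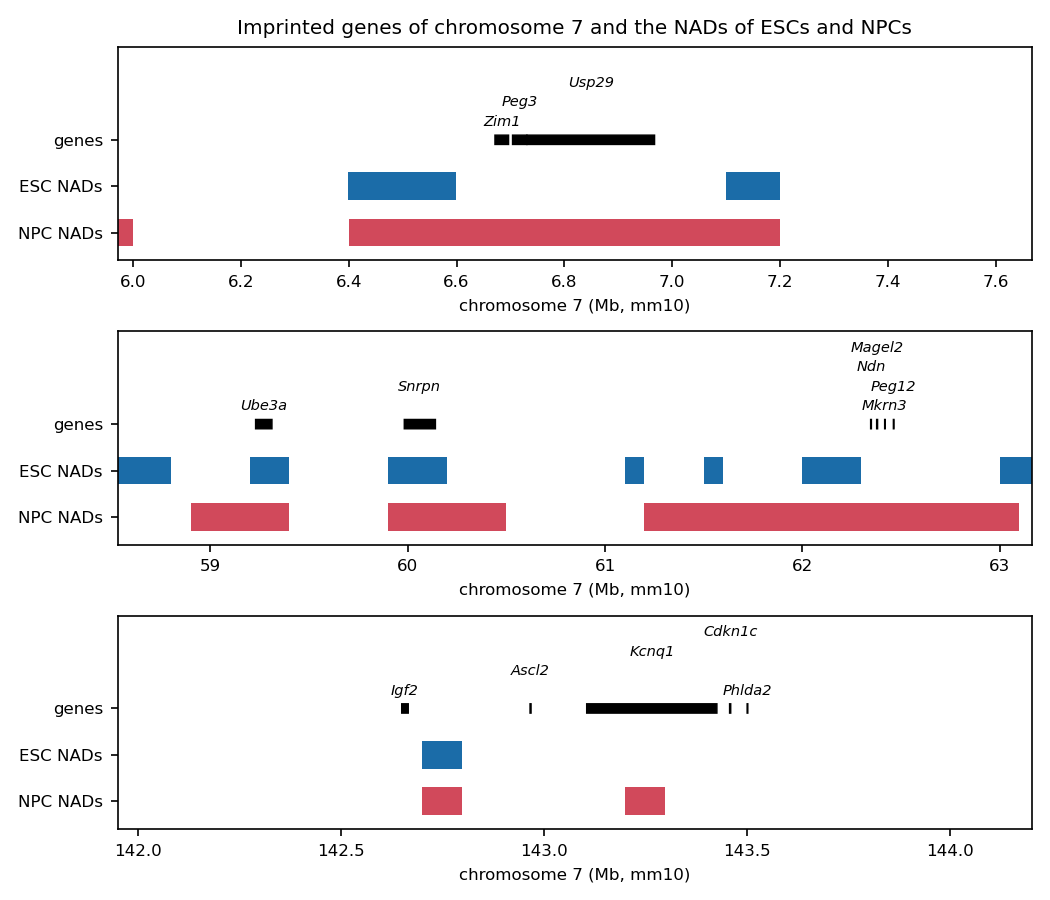
Imprinted genes (black, short genes drawn as thin lines) and NADs of ESCs (blue) and NPCs (red) in 3 windows of chromosome 7, drawn to scale in megabases of mm10. In NPCs a single NAD spans Zim1, Peg3 and Usp29, and another spans Ndn, Magel2, Mkrn3 and Peg12, where the NADs of ESCs lie outside the genes.

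Promoters were taken from RefSeq (GRCm38.p6) as 250 bases before to 50 bases after each annotated start, and 23 of the 29 genes matched, with 38 promoters. The hexamer TGCCGC, the core of the sequence that ZFP57 binds when methylated, was searched on both strands. It occurred in 9 of the 38 promoters, from 8 genes, against 11.6% of 32851 promoters of the same length. The promoters of the imprinted genes held a median of 14.5 CG dinucleotides, against 7.0 over all promoters, and the hexamer itself holds a CG. A match is a string of letters and does not show binding.

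Counted by gene, 3527 of all 27025 genes with a promoter held a match to the hexamer. Of the 14 genes called higher in NPCs that had a promoter, 6 held a match and 8 did not, namely Peg3, Ndn, Peg12, Mkrn3, Dlk1, Igf2r, Ube3a and Slc38a4. Of the 6, Igf2 held none in 3 of its 4 promoters, Grb10 none in 1 of 2 and Mest none in 1 of 3. The promoters of these 6 genes that hold a match are shown, so that the place of the hexamer can be seen. Capitals mark TGCCGC or its reverse complement, and each sequence reads 5′ to 3′ along the strand of the gene. Mest is at chr6:30737800-30738099 (plus strand), Nnat at chr2:157559828-157560127 (plus), Zim1 at chr7:6696383-6696682 (minus), Igf2 at chr7:142661222-142661521 (minus), Plagl1 at chr10:13090582-13090881 (plus) and Grb10 at chr11:12037371-12037670 (minus). A further start of Mest, 3 bases downstream, gives nearly the same window. The sequences hold 17, 17, 20, 14, 26 and 45 CG dinucleotides in this order, and only that of Mest holds 2 matches.
Mest: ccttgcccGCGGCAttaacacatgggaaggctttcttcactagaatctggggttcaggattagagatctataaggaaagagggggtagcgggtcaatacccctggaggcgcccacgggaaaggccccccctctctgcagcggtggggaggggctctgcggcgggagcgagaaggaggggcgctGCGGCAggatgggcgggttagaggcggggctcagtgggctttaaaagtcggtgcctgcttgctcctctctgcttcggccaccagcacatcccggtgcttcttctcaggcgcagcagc
Nnat: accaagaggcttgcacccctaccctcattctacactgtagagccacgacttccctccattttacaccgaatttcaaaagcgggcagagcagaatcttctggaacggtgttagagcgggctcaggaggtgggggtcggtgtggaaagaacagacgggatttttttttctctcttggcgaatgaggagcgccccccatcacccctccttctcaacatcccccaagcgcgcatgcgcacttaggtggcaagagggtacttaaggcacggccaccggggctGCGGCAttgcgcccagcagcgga
Zim1: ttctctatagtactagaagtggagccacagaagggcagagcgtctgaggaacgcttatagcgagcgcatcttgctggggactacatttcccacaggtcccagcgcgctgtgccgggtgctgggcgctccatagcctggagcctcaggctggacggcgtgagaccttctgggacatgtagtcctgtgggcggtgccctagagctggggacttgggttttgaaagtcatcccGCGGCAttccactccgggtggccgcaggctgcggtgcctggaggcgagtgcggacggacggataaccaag
Igf2: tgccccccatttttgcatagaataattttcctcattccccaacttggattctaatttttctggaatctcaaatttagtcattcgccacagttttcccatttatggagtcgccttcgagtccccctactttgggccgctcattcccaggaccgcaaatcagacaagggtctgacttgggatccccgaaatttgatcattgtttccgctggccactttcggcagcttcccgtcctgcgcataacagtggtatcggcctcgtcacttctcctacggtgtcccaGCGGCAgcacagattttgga
Plagl1: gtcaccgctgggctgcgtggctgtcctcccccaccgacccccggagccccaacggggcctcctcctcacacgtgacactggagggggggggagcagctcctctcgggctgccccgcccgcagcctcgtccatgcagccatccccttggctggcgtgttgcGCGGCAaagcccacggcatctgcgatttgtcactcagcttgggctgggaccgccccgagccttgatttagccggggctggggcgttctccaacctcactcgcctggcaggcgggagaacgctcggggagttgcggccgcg
Grb10: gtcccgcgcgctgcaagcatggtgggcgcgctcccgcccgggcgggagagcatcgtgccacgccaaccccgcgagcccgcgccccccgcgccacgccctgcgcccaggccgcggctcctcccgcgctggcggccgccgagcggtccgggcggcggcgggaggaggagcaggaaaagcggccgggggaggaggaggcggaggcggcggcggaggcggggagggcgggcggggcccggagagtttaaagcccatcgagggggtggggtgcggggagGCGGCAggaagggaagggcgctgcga
Zdbf2, which was not called, held 3 matches in the promoter of its upstream start at chr1:63200108-63200407 and none in that of its other start, and Snrpn held 1 in 1 of 4 promoters.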

How the data were processed

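Poly(A)-selected RNA of 3 ESC and 3 NPC samples was sequenced. The authors deposited RPKM values, made per sample from reads mapped to mm10; the study's methods name STAR, whereas the submitters' processing notes list Bowtie2 2.3.4.3 and Subread 1.4.6-p4. The labels name the TruSeq RNA Sample Prep Kit v2 and the methods a stranded TruSeq kit; use of strand in counting is not given in the sources used here. The NAD score was also computed by the authors, from H2B-Dam-NoLS over H2B-Dam, as 1 value for both replicates.

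The members and lists were chosen with earlier results of these data known. Of 22064 lines, those sharing a symbol (153 symbols) were summed, as planned; 113 of these symbols had identical lines, so their sums are doubled, Rtl1 among them. Genes with a mean of at least 1 RPKM were fitted with limma 3.58.1 (R 4.3.3, eBayes with trend) on log2(RPKM + 1), with Benjamini-Hochberg adjustment over all genes tested. The fit was also run on simulated data, and no rate of false calls is given here from that run. Whole reads were sought over RefSeq and GENCODE M21 spans of each imprinted gene, and read numbers are given only where a match by chance was unlikely over all spans tried, a limit set after a first look at the matches. Gene positions are from GENCODE M21, exon lengths from RefSeq. Named genes were every member with a line and, per other list, up to 3 called genes each way, taken by size of log2 difference. Alternatives were other pseudocounts, filters, scalings and treatments of shared symbols, a replicate block, each sample left out and, added later, RPKM per exon length. Python 3.11.15, pandas 2.3.3 and matplotlib 3.10.9 were used.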

Additional observations from a re-analysis of the deposited data

How the results depend on the processing

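Over 18 alternative fits, 3 of them chosen after seeing the data, 16 of the 20 imprinted genes in the test kept their direction and their side of the threshold; the exceptions were Ube3a, Impact, Zrsr1 and Zdbf2. With every gene above 0 tested, calls over all genes were 7247 higher and 4208 lower (39.5% and 22.9%), 2 imprinted genes were called lower, and by list the calls were 8 higher and 2 lower for maternally expressed genes, 19 and 8 for other imprinted genes, and 14 and 1 for the insulin-like growth factor axis; more genes enter that fit. With RPKM per exon length, which put the median of all genes at 0.19 and is an approximation where the authors' span differs from that of RefSeq, 4844 genes were called higher (42.0%, and 29.9% lower), 12 and 8 other imprinted genes were called higher and lower, and 12 genes of the growth factor axis higher. With that scale and without ESC replicate 3, the counts were 5751 higher and 4538 lower over all 11608 genes tested (49.5% and 39.1%). Of the imprinted genes, 2 were then called lower, of which 1, Impact at -0.15, is paternally expressed. Other imprinted genes called higher and lower numbered 13 and 9. Of the maintenance factors, 14 were called lower, and in the growth factor axis 13 were called higher and 1 lower.

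Other imprinted genes called lower numbered 3 after quantile normalization, against 38.8% of all genes. Impact was at -0.046 after median centring. Leaving out each sample in turn gave -0.14 to 0.15 for Impact, -0.11 to 0.0022 for Zrsr1, 2 to 5 other imprinted genes lower, 3 to 5 maintenance factors higher and 6 to 11 lower, and 0 to 1 genes of the growth factor axis lower, while 26.2% to 42.2% of all genes were called higher and 27.8% to 44.9% lower. The causes were not tested.

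With the replicate number as a block, 16 imprinted genes were called higher and 1 lower, as without it, against 31.2% and 32.4% of all genes, and other imprinted genes called lower numbered 3. Deviations of same-numbered samples correlated at 0.11, -0.08 and 0.03, so the numbers were not taken to pair the samples, and ESC replicates 2 and 3 correlated best with NPC replicates 1 and 2. Of the 9 imprinted genes with a mean under 1 RPKM, 8 were called with every gene above 0 tested and Snrpn was not. Kcnq1, Magel2 and Slc22a3 had 0 to 7 reads in each ESC sample, so counting error limits how well the size of their difference is known.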
